A study of Homo sapiens with 12 samples.

Results

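The 38 genes described here are 22 enzymes, regulators and transporters of glycolysis (HK1 to PFKFB4) and 16 other targets of the hypoxia-inducible factors, or HIFs (VEGFA to EPO). They were chosen by gene symbol from a list, and all 38 were found among the 16705 genes of the table. The samples were spheroids in which C3A cells, a clone of the human hepatoma line HepG2, were grown together with LX-2 cells, an immortalised line of activated human hepatic stellate cells. Of the 12 libraries 6 came from untreated spheroids and 6 from spheroids kept in medium with 1% total parenteral nutrition (TPN), a clinical mixture of amino acids with electrolytes, glucose, a lipid emulsion, trace elements and vitamins. Each was sampled after 24 h and after 144 h of exposure, so that each of the 4 combinations of exposure and time had 3 libraries. Both lines are transformed or immortalised single lines, each library pooled many spheroids, and the untreated spheroids of 144 h were also older cultures than those of 24 h.

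Glycolysis turns glucose into pyruvate, and lactate dehydrogenase turns pyruvate into lactate when oxygen is short. Under low oxygen the HIF alpha subunits escape hydroxylation by the prolyl hydroxylases of the EGLN family and the degradation that VHL then directs, pair with ARNT, and bind hypoxia response elements, whose core reads ACGTG or GCGTG. Most glycolytic enzymes are HIF targets, together with genes for vessel growth, acid-base balance, collagen hydroxylation and removal of mitochondria, and with EPO, a hormone that the liver makes before birth. Oxygen itself was not among the measurements analysed here.

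The values were fragments per kilobase of transcript, scaled to the mapped fragments of the library (FPKM), which sum to between 561657 and 583722 in a library. Steps between the low values of short genes gave an estimated depth of 1.8e+07 to 1.9e+07 fragments in a library, so that 1 fragment on a transcript of 2000 bases was worth 0.0311 FPKM at the median depth. The 3 libraries of a group came from independent experiments. For the p-values each gene had 1 estimate of the spread within groups, shared by the 4 groups and moderated toward that of genes of similar level. Hepatocyte markers were abundant: the 12 on the list summed to between 19230 and 25990 FPKM in every library. Markers of stellate cells were low or absent in part, with DES, LUM and DCN at or near 0 in every group, and the 12 markers other than FN1, which outweighed the rest, summed to between 137.8 and 145.8 FPKM in untreated spheroids at 24 h and to between 75.77 and 80.69 FPKM at 144 h. In bulk libraries of mixed cells, fewer cells of a type and less RNA per cell cannot be told apart.

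Because the core of the hypoxia response element is short, its letters were counted in the promoter windows of the RefSeq promoter table (build GRCh38.p14), and the windows of members described at length below are shown. Entries were found for 34 of the 38 members, with 63 start sites; VEGFA, NDRG1, BNIP3L and SLC2A3 had none. On either strand of the 250 bases before the start, ACGTG occurred at 39.7% of the members' start sites and at 18.5% of all 35116 start sites in the table. GCGTG occurred at 33.3% and 32.2%, and CACGTG, which holds ACGTG on both strands, at 14.3% and 6.34%. Counted by gene, 28 of the 34 members (82.4%) had ACGTG or GCGTG before at least 1 start site, against 47.4% of 27305 genes; members with several listed starts, such as HK1 and PFKM with 7 each, had more bases searched. Below are 5 windows of members with a single listed start, read 5′ to 3′ on the strand of the gene, with every occurrence of ACGTG or GCGTG on either strand in capitals. They lie at chr12:6914330-6914579 (ENO2, plus strand), chr4:185396591-185396840 (ANKRD37, plus strand), chr3:4979187-4979436 (BHLHE40, plus strand), chr14:33951075-33951324 (EGLN3, minus strand) and chr7:100720218-100720467 (EPO, plus strand).
ENO2: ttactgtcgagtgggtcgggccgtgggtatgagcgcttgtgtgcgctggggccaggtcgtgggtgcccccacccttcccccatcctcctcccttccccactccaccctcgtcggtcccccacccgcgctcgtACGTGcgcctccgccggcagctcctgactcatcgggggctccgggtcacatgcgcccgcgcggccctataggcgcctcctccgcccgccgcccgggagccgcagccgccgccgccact
ANKRD37: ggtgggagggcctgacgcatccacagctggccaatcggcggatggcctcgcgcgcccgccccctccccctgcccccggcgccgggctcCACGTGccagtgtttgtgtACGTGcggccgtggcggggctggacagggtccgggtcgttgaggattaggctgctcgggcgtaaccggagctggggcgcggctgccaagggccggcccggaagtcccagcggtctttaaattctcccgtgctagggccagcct
BHLHE40: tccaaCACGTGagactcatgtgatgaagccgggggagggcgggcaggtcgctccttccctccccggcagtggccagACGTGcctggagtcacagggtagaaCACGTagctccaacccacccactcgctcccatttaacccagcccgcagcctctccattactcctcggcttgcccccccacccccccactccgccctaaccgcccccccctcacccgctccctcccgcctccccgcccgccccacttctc
EGLN3: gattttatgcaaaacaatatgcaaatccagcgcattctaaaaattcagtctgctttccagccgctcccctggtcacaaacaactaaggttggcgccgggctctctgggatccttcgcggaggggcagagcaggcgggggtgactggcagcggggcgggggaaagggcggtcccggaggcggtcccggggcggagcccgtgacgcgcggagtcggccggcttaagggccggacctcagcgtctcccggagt
EPO: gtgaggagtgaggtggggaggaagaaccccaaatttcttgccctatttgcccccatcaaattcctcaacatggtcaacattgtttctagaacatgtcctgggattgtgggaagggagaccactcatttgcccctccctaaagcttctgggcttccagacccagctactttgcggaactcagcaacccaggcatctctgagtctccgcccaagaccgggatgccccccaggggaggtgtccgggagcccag
ENO2 had 1 run of capitals, 118 to 114 bases before the listed start, ANKRD37 had 2 and BHLHE40 had 3. The gene annotation given with the FPKM starts ENO2 at chr12:6914450 and BHLHE40 at chr3:4979420, both within the windows shown. By that annotation the ENO2 match lies after the start of the gene, and the BHLHE40 matches lie before it. ACGTG and GCGTG were not in the windows of EGLN3 and EPO, the members with the highest and the lowest log2 fold change with TPN at 144 h. Only the 250 bases before the listed start were searched, so sites elsewhere at these genes would have been missed. A match of letters is a description of the sequence and not a measurement of binding.

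The levels of the members, which FPKM gives per length, ranged widely. GAPDH, ENO1, ALDOA, LDHA, TPI1, PKM and PGAM1, which catalyse steps from aldolase to lactate, were the 7 highest of the 38 in untreated spheroids at 24 h, with GAPDH at a mean of 3677 FPKM and PGAM1 at 635.7 FPKM. GAPDH and ENO1, at 26.4% and 25.0% of the members' summed FPKM, stood together at the head, and at 144 h ENO1 (5144 FPKM) stood above GAPDH (4593 FPKM) in untreated spheroids. Of the other HIF targets BNIP3 was the highest at 24 h, with 248.7 FPKM. At the low end were EGLN3 (1.907 FPKM), PFKM (1.79 FPKM), HK1 (1.423 FPKM) and CA12, a membrane carbonic anhydrase. CA12 stayed below the minimum mean of 0.5 FPKM set for testing: it was listed at 0.02 to 0.08 FPKM in 9 libraries, and in the 3 TPN libraries of 144 h at 0.21, 0.22 and 0.28 FPKM, above all others. No test was run on it. All other members, 37, passed this filter. Summed over the genes, the glycolysis members held 13240 ± 246 FPKM (SD, n = 3) in untreated spheroids at 24 h and 17330 ± 279 FPKM at 144 h, and the other HIF targets 686.1 ± 46.2 and 2172 ± 42.3 FPKM.

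**Figure D1:**
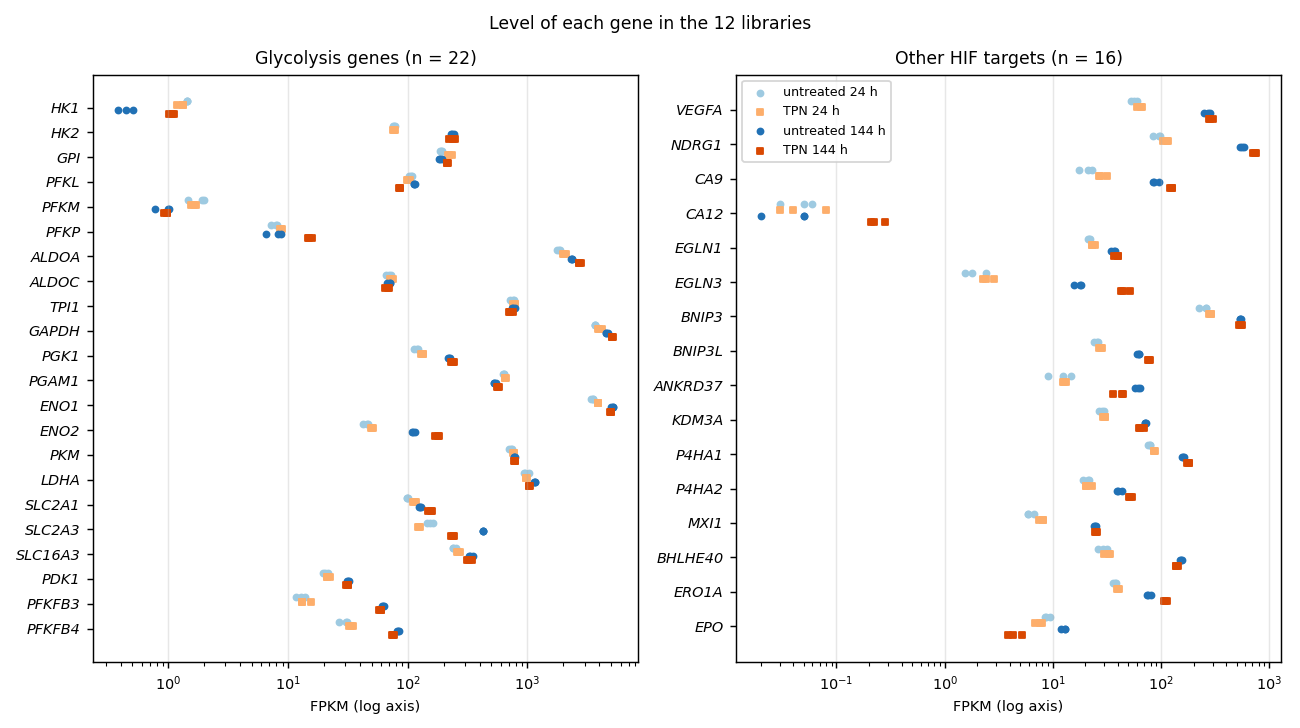
Level of each of the 38 members in the 12 libraries, in FPKM on a log axis, with 1 point per library and 1 colour per group. GAPDH, ENO1 and ALDOA lie furthest to the right, most of the other HIF targets lie further right at 144 h (dark) than at 24 h (pale), and the lowest EPO values are those of the TPN libraries of 144 h.

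The first comparison asked what 24 h of TPN did to these genes. The response was small and mostly upward: 15 members rose, SLC2A3 fell, and no member passed the study's size limit of 0.58 on the log2 scale, which 0.64% of all genes did upward and 0.273% downward. Calls here rest on limma with the adjusted p (Benjamini-Hochberg over the 11713 genes tested) below 0.05. Over all genes tested 5.04% rose and 5.46% fell, and the median log2 fold change of the 37 members was 0.13 against -0.0045 over all genes. Among the glycolysis members 9 of 22 rose and 1 fell (median 0.098), and among the other HIF targets 6 of 15 rose and none fell (median 0.15). In 21 of the 38 members all TPN libraries lay above all untreated ones and in 3 below, as in 13.9% and 15.9% of all genes tested. The 3 below were SLC2A3, EPO and HK1. EPO and HK1 did not pass, with log2 fold changes of -0.26 and -0.15 (adjusted p 0.0961 and 0.506). The count of calls changed with the libraries kept: without replicate 2 of TPN 24 h, 9 members rose and 1 fell. Over all genes 590 rose and 640 fell with every library, and 416 and 469 did without that one. Without replicate 3 of untreated 24 h, 440 of all genes rose and 444 fell. Of the hepatocyte markers 6 of 12 fell at this time and of the proliferation genes 9 of 10; their part in the members' differences was not tested.

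CA9, a carbonic anhydrase that exports acid equivalents, changed most at 24 h. Its levels were 22.8, 21.05 and 17.38 FPKM in untreated spheroids and 27.53, 31.35 and 26.81 FPKM with TPN, so that the groups did not overlap. The log2 fold change was 0.49 (SE 0.085, adjusted p = 0.00204). MXI1, an antagonist of MYC, lay between 5.88 and 6.73 FPKM in untreated libraries and rose to between 7.43 and 8.19 FPKM with TPN (log2 fold change 0.35, adjusted p = 0.00101). NDRG1, a stress-induced cytoplasmic protein, rose by 0.28 (adjusted p = 0.00492). Both were thus above all untreated libraries of that time.

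The rises in glycolysis, of 0.13 to 0.25, were smaller than those of CA9, MXI1 and NDRG1. The remaining rises among the other HIF targets, of BNIP3 (0.20), P4HA1 (0.17, adjusted p = 0.00151) and BNIP3L (0.13), lay in that range. GPI, the isomerase of the second step, lay between 185.93 and 194.34 FPKM in untreated libraries and rose to between 219.15 and 233.97 FPKM with TPN, a log2 fold change of 0.25 (adjusted p = 0.000169). SLC2A1, the basal glucose transporter, rose by 0.21 (adjusted p = 0.000556), and ALDOA, GAPDH, PGK1, ENO1 and ENO2 rose by 0.13 to 0.17. Of the other enzymes between aldolase and enolase, ALDOC, TPI1 and PGAM1 did not pass (0.070, 0.057 and 0.046, adjusted p 0.352, 0.367 and 0.3). The lactate exporter SLC16A3 and the bifunctional enzyme PFKFB4 rose as well, by 0.14 and 0.18. HK2, the main hexokinase here, had a log2 fold change of 0.011 (95% interval -0.067 to 0.089), and LDHA one of 0.019 (-0.054 to 0.091). SLC2A3, a high-affinity glucose transporter, went the other way: it was at 161.71, 153.48 and 146.18 FPKM without and at 125.44, 125.76 and 123.01 FPKM with TPN, a log2 fold change of -0.30 (SE 0.034, adjusted p = 7.5e-05). The calls for ENO2, GAPDH, PFKFB4, SLC16A3, BNIP3 and BNIP3L were each lost without replicate 2 of TPN 24 h (adjusted p 0.0567, 0.0672, 0.132, 0.13, 0.0533 and 0.107). Those for ENO2, GAPDH, PFKFB4, SLC16A3 and BNIP3L were also lost without replicate 3 of untreated 24 h, those for PFKFB4, SLC16A3 and BNIP3 without replicate 1 of TPN 24 h, that for SLC16A3 without replicate 1 of untreated 24 h, and that for BNIP3L without replicate 2 of untreated 24 h or replicate 3 of TPN 24 h (adjusted p 0.0518 to 0.116).

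After 144 h of TPN the members had spread in both directions. Of the 37 tested 17 rose and 7 fell, while 24.2% of all genes rose and 28.3% fell. The members' share of rises stood above that background and their share of falls below it. With the size limit added, HK1, PFKP, ENO2 and EGLN3 rose and SLC2A3 and EPO fell, where 5.75% of all genes rose and 3.73% fell. The median log2 fold change was 0.0093 over the 22 glycolysis members, of which 9 rose and 4 fell, and 0.11 over the 15 other HIF targets, of which 8 rose and 3 fell. The median over all genes was -0.018. Of all 38 members, the libraries did not overlap for 17 that were higher, the untested CA12 among them, and for 9 that were lower. Of all genes tested 27.2% and 30.2% were apart in this way. In the plot of TPN effects the 144 h points reach much further from 0 than those of 24 h.

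**Figure D2:**
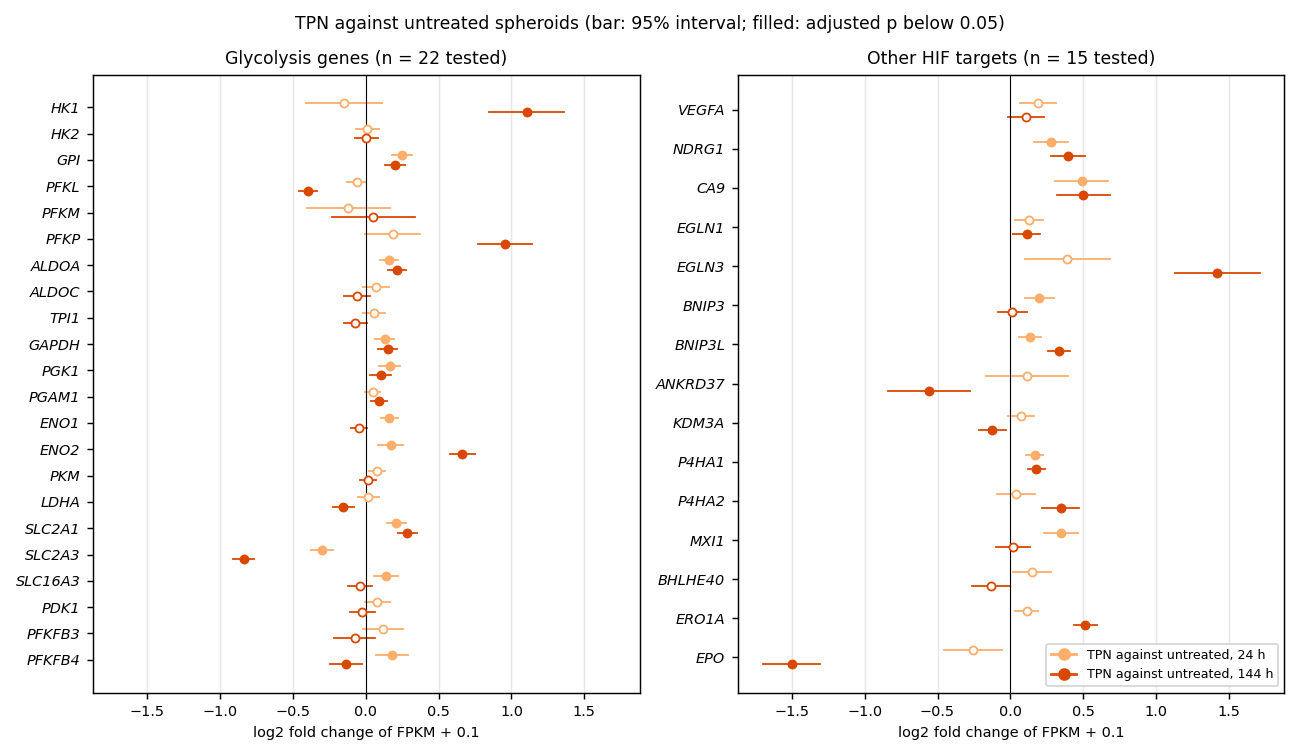
Log2 fold change of FPKM + 0.1, TPN against untreated, at 24 h (pale) and 144 h (dark) for the 37 members tested; bars are 95% intervals and filled points passed an adjusted p of 0.05. EGLN3, HK1, PFKP and ENO2 lie furthest to the right at 144 h, and EPO and SLC2A3 furthest to the left.

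Among the glycolysis members, SLC2A3, HK1, PFKP and ENO2 passed both the test and the size limit at 144 h, SLC2A3 downward and the 3 enzymes upward. SLC2A3 was at 424.7, 424 and 426.89 FPKM in untreated spheroids and at 230.47, 245.43 and 237.84 FPKM with TPN. The untreated libraries lay within 3 FPKM of each other, and the TPN libraries lay far below them, a 1.79-fold lower mean (log2 fold change -0.84, SE 0.034, adjusted p = 4.38e-10). SLC2A14, a near-identical copy whose reads can be shared with SLC2A3, fell by 0.80 (adjusted p = 1.5e-07), and the counting may divide fragments between both. SLC2A1 rose by 0.28 (adjusted p = 3.99e-06).

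HK1, the hexokinase found in most tissues, was at 0.38, 0.44 and 0.51 FPKM in untreated spheroids and at 1.07, 1.11 and 1.01 FPKM with TPN. Its level was 2.4-fold higher with TPN and the groups did not overlap, though in every library HK1 was among the lowest members (log2 fold change 1.10, SE 0.12, adjusted p = 4.51e-06). With a pseudocount of 1 in place of 0.1 the value was 0.516, below the size limit (adjusted p = 7.95e-06). HK2 carried most of the hexokinase signal and had a log2 fold change of 0.0033 (95% interval -0.075 to 0.081). PFKP, the platelet-type phosphofructokinase of the committed step, was at 6.52, 8.82 and 8.25 FPKM without and at 15.91, 14.79 and 15 FPKM with TPN (1.94-fold, log2 fold change 0.96, SE 0.087, adjusted p = 8.82e-07). PFKL, the liver-type isoform, did the reverse, with 113.1, 112.53 and 114.33 FPKM without and 87, 84.67 and 86.4 FPKM with TPN (log2 fold change -0.40, SE 0.030, adjusted p = 1.22e-07). PFKM, the muscle type, had a log2 fold change of 0.050 (95% interval -0.23 to 0.34).

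In the lower part of the pathway ENO2, the neuron-type enolase, stood out. It was at 109.12, 114.56 and 111.05 FPKM without and at 170.58, 181.5 and 178.15 FPKM with TPN, a 1.58-fold difference with no overlap (log2 fold change 0.66, SE 0.040, adjusted p = 1.66e-08). The other enzymes moved by much less: ALDOA, GPI, GAPDH, PGK1 and PGAM1 rose by 0.09 to 0.21, LDHA fell by 0.16 (adjusted p = 0.00158) and PFKFB4 fell by 0.13 (adjusted p = 0.0377). ENO1, PKM, ALDOC, TPI1, SLC16A3, PDK1, the kinase that shuts off pyruvate dehydrogenase, and PFKFB3 did not pass, with log2 fold changes from -0.08 to 0.02. Pseudogenes of GAPDH, PGAM1, ENO1, LDHA, TPI1 and PGK1 can take up fragments of these genes, so small differences in them are uncertain. The calls for PGK1, PGAM1 and PFKFB4 were lost under at least 1 other setting or without 1 library; for PGK1 the libraries were replicate 2 of untreated 144 h and replicate 3 of TPN 144 h (adjusted p 0.0683 and 0.0756), and for PFKFB4 any library of untreated 144 h or replicate 1 or 2 of TPN 144 h (0.0509 to 0.111).

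EGLN3 and the hormone EPO had the largest log2 fold changes among the other HIF targets. EGLN3, a prolyl hydroxylase that is itself induced by HIF, was at 18.37, 15.71 and 17.74 FPKM in untreated spheroids and at 44.23, 42.93 and 51.98 FPKM with TPN. The groups lay far apart, with a 2.69-fold difference of means (log2 fold change 1.42, SE 0.13, adjusted p = 1.22e-06). EGLN1, the principal oxygen sensor, had a log2 fold change of 0.11 (adjusted p = 0.0491), a call lost in 14 of 23 alternatives, among them without any of 9 single libraries: all 3 of untreated 24 h, replicates 2 and 3 of TPN 24 h and of untreated 144 h, and replicates 1 and 2 of TPN 144 h (0.0551 to 0.208). EPO was at 12.98, 12 and 12.97 FPKM without and at 5.15, 3.85 and 4.29 FPKM with TPN, 2.86-fold lower with no overlap (log2 fold change -1.50, SE 0.091, adjusted p = 1.66e-08).

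Of the remaining HIF targets CA9 and ERO1A changed most upward. CA9 was at 83.55, 85.35 and 94.75 FPKM without and at 120.04, 125.33 and 127.59 FPKM with TPN (log2 fold change 0.50, SE 0.085, adjusted p = 0.000227). ERO1A, which reoxidises protein disulfide isomerase in the endoplasmic reticulum, was at 81.42, 74.91 and 75.45 FPKM without and at 109.67, 113.96 and 107.41 FPKM with TPN (log2 fold change 0.51, SE 0.037, adjusted p = 9.4e-08). Both genes were above all untreated libraries. NDRG1 rose by 0.40, the collagen prolyl hydroxylase subunits P4HA2 and P4HA1 rose by 0.35 and 0.18, and BNIP3L, a receptor for the removal of mitochondria, rose by 0.33. BNIP3, its relative, had a log2 fold change of 0.012 (95% interval -0.087 to 0.11) and VEGFA, the vessel growth factor, one of 0.10 (-0.019 to 0.23).

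ANKRD37, an ankyrin repeat protein, and the histone demethylase KDM3A fell. ANKRD37 was at 57.62, 63.25 and 61.43 FPKM without and at 43.53, 35.94 and 44.82 FPKM with TPN (log2 fold change -0.56, SE 0.13, adjusted p = 0.00269). KDM3A fell by 0.12, a call lost without any of 4 libraries (replicates 2 and 3 of untreated 144 h and replicates 1 and 3 of TPN 144 h, adjusted p 0.0522 to 0.0905). The transcription factors MXI1 and BHLHE40 had log2 fold changes of 0.019 and -0.13 and did not pass. Of the hepatocyte markers 9 of 12 fell with TPN at 144 h, with ALB at -0.64 and AFP at -0.69. Of the 10 stellate markers tested 5 fell, and FN1 rose. Among those falls was COL1A1 (-1.25), from a mean of 1.92 FPKM in untreated spheroids to 0.75 FPKM with TPN. All 10 proliferation genes fell. Of all genes tested 28.3% fell and 24.2% rose. The part of these markers and proliferation genes in the members' differences was not tested.

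**Figure D3:**
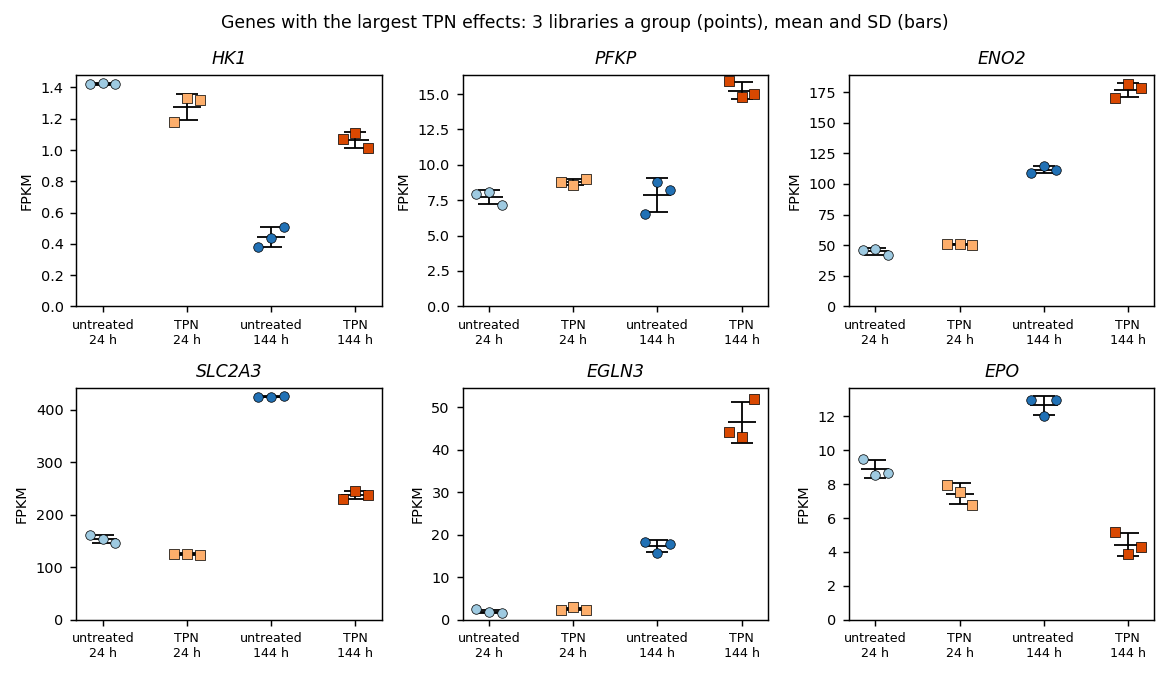
FPKM of the 6 members that passed both the adjusted p and the size limit with TPN at 144 h; points are libraries, bars the mean and SD of 3, and each axis starts at 0. The TPN libraries of 144 h lie above the untreated ones for HK1, PFKP, ENO2 and EGLN3 and below them for SLC2A3 and EPO, while at 24 h the differences are much smaller.

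Whether the TPN effect at 144 h differed from that at 24 h was tested as an interaction in the same limma fit. It passed for 19 of 37 members, 7 with a higher and 12 with a lower effect at 144 h, where 14.1% of all genes were higher and 16.3% lower. Above the size limit were HK1 (difference of log2 fold changes 1.25), EGLN3 (1.03), PFKP (0.77), ANKRD37 (-0.67) and EPO (-1.24), where 4.2% of all genes passed both limits upward and 1.66% downward. ANKRD37 was within the size limit without replicate 3 of untreated 24 h (-0.477) or replicate 2 of TPN 144 h (-0.571), and still past the adjusted p. Across both times 10 members rose at each, SLC2A3 fell at each, and PFKFB4 rose at 24 h and fell at 144 h (interaction -0.31, adjusted p = 0.00474). Of all genes 5.04% rose and 5.46% fell at 24 h, and 24.2% and 28.3% at 144 h. The share of all genes called at both times was not counted. Of the 10 members, ENO2, GAPDH and BNIP3L lost the 24 h call and PGK1 the 144 h call under at least 1 alternative. PFKFB4 lost its calls at 24 h and at 144 h in the same way. The effect on CA9 was 0.49 at 24 h and 0.50 at 144 h, with a difference of 0.013 (95% interval -0.24 to 0.27). MXI1, BNIP3, ENO1 and SLC16A3 rose at 24 h and did not pass at 144 h, and their interactions were -0.33, -0.19, -0.21 and -0.18.

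Shares within an enzyme family, which need no reference to other genes, shifted between isoforms. HK2 gave 86.2% ± 0.558 (SD, n = 3) of the summed hexokinase FPKM in untreated spheroids at 144 h and 79.1% ± 0.762 with TPN, while HKDC1, a further hexokinase that was not a member, went from 13.6% ± 0.557 to 20.5% ± 0.761. HK2 itself was at means of 235.1 FPKM without and 235.8 FPKM with TPN, and the hexokinase sum was 272.7 and 297.9 FPKM. PFKP went from 6.43% ± 0.928 to 14.9% ± 0.368 of phosphofructokinase as PFKL went from 92.8% ± 0.898 to 84.2% ± 0.326. Among SLC2A1, SLC2A2 and SLC2A3, SLC2A3 went from 75.4% ± 0.3 to 59.3% ± 0.566. All of these shares kept the TPN and untreated libraries apart. ENO2 went from 2.12% to 3.42% of enolase, and ENO1 still held 96.4%. PKLR, the liver form, gave 1.79% and 1.33% of pyruvate kinase. At 24 h HK2 went from 71.6% to 64.4% with TPN, HKDC1 from 27.0% to 34.5% and SLC2A3 from 56.8% to 49.2%. The mean level of HK2 was then 76.42 FPKM without and 77.02 FPKM with TPN. The phosphofructokinase shares moved less at that time, PFKP from 6.7% to 7.87% and PFKL from 91.8% to 90.7%.

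**Figure D4:**
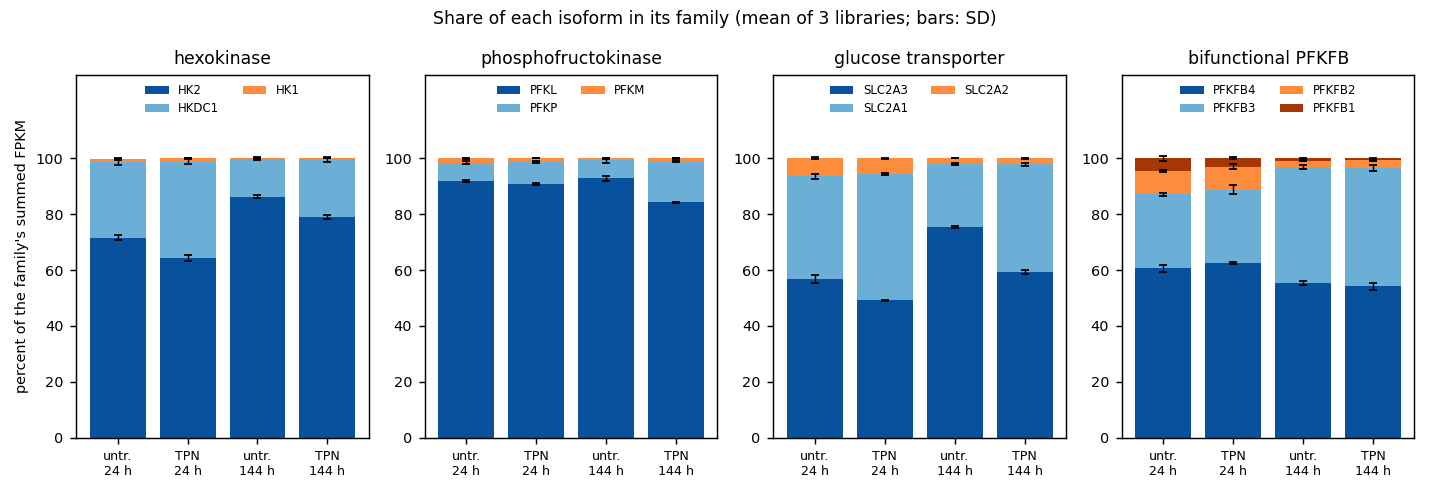
Share of each isoform in the summed FPKM of its family, mean of 3 libraries with SD bars, in the 4 groups (untr., untreated); forms near 0, such as HK3, are not drawn. With TPN the shares of HKDC1, PFKP and SLC2A1 are larger at 144 h, and those of HK2, PFKL and SLC2A3 smaller.

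Culture time gave larger log2 fold changes than TPN for most HIF targets. In untreated spheroids 30 of the 37 members rose between 24 h and 144 h and 3 fell, whereas 20.1% of all genes rose and 52.4% fell. All 15 other HIF targets tested rose, by 0.50 to 3.13 on the log2 scale, with a median of 1.33, and 14 of them passed the size limit, as 6.8% of all genes did in that direction. Of the glycolysis members 15 rose and 3 fell, with a median of 0.34, and 7 of the rises and 2 of the falls passed the size limit, which 12.2% of all genes did downward. PFKM, 1 of these 2 falls, was within that limit with a pseudocount of 1 (-0.532) and still past the adjusted p. The median over all genes was -0.18 in this comparison, and median ratio scaling, quantile normalization and removal of the GC and length trend moved it to -0.0074, -0.049 and -0.057. Over all genes 2360 rose and 6138 fell, and 3884 and 3942 did after median ratio scaling. Small changes are therefore to be read against that shift: the rises of ALDOA, GAPDH and LDHA did not pass after quantile normalization (0.087, 0.050 and 0.047).

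EGLN3 rose most, from 2.4, 1.79 and 1.53 FPKM at 24 h to 18.37, 15.71 and 17.74 FPKM at 144 h, a 9.06-fold difference (log2 fold change 3.13, SE 0.13, adjusted p = 2.05e-10). NDRG1 was at 96.12, 96.84 and 83.87 FPKM and at 540.16, 558.49 and 583.99 FPKM (6.08-fold, log2 fold change 2.60, adjusted p = 5.93e-13). At 144 h it was the highest of the other HIF targets in level. BHLHE40, a repressor of the clock and of metabolism, went from 31.84, 29.34 and 26.16 to 150.95, 153.53 and 157.01 FPKM (5.28-fold). ANKRD37 went from 14.57, 12.38 and 8.95 to 57.62, 63.25 and 61.43 FPKM (5.08-fold). VEGFA and CA9 were 4.75-fold and 4.31-fold higher, and EPO, the smallest of the rises, 1.42-fold.

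Within glycolysis PFKFB3 rose most. This enzyme, which makes the activator fructose 2,6-bisphosphate, was at 13.85, 12.88 and 11.71 FPKM at 24 h and at 61.37, 63.35 and 62.67 FPKM at 144 h (4.87-fold, log2 fold change 2.28, adjusted p = 5.21e-12). HK2 was 3.08-fold, PFKFB4 2.81-fold, SLC2A3 2.76-fold and ENO2 2.48-fold higher. PGK1 rose by 0.90, ENO1 by 0.57, ALDOA by 0.36, GAPDH by 0.32 and LDHA by 0.26, and PKM and PFKL by 0.10 each. HK1 fell from 1.42, 1.43 and 1.42 to 0.38, 0.44 and 0.51 FPKM (3.21-fold lower, adjusted p = 9.09e-08), PFKM fell from 1.47, 1.93 and 1.97 to 1.01, 1 and 0.77 FPKM and PGAM1 fell by 0.26. The stellate markers also fell over this time (8 of 10 tested, median -1.96), as did all 10 proliferation genes on the list. Of all genes tested 52.4% fell. The part of these markers and proliferation genes in the members' changes was not tested.

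The same comparison in TPN-exposed spheroids, which shares no library with the untreated one, gave 28 rises and 7 falls, against 24.2% and 52% of all genes. Past the size limit were 21 and 2 members, against 9.51% and 17.2%. The 2 falls, of EPO and PFKM, were within that limit after median ratio scaling (-0.568 and -0.544) and still past the adjusted p. So was that of PFKM with a pseudocount of 1 (-0.425). EGLN3 was 18.5-fold higher at 144 h than at 24 h, from 2.25, 2.87 and 2.39 FPKM, and NDRG1 6.61-fold. EPO went the opposite way to the untreated spheroids, from 7.97, 7.56 and 6.78 to 5.15, 3.85 and 4.29 FPKM (log2 fold change -0.74, adjusted p = 4.7e-06), the only one of the 15 tested members among the other HIF targets that fell. HK1, which fell in untreated spheroids, had a log2 fold change of -0.24 here (95% interval -0.50 to 0.017), and PFKP rose by 0.79. The falls of GPI, ALDOC and TPI1, of 0.07 to 0.12, turned positive under median ratio scaling, and those of PFKL and PGAM1 did not pass there (-0.0594 and -0.0388, adjusted p 0.0835 and 0.208). The rises of ALDOA, GAPDH and ENO1, of 0.41, 0.34 and 0.36, did not pass after quantile normalization (0.0567, 0.035 and 0.043), nor did the fall of TPI1 (-0.0567). The rise of LDHA, of 0.08, became a fall of 0.17 after quantile normalization. These small calls also rested on single libraries: ALDOC did not pass without replicate 2 of TPN 24 h or of TPN 144 h, TPI1 without replicate 1 or 2 of either TPN group, LDHA without replicate 2 or 3 of either, and GPI without any of 6 libraries (replicates 2 and 3 of TPN 24 h, 1 and 3 of TPN 144 h, 2 of untreated 24 h and 3 of untreated 144 h), with adjusted p from 0.0521 to 0.204.

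**Figure D5:**
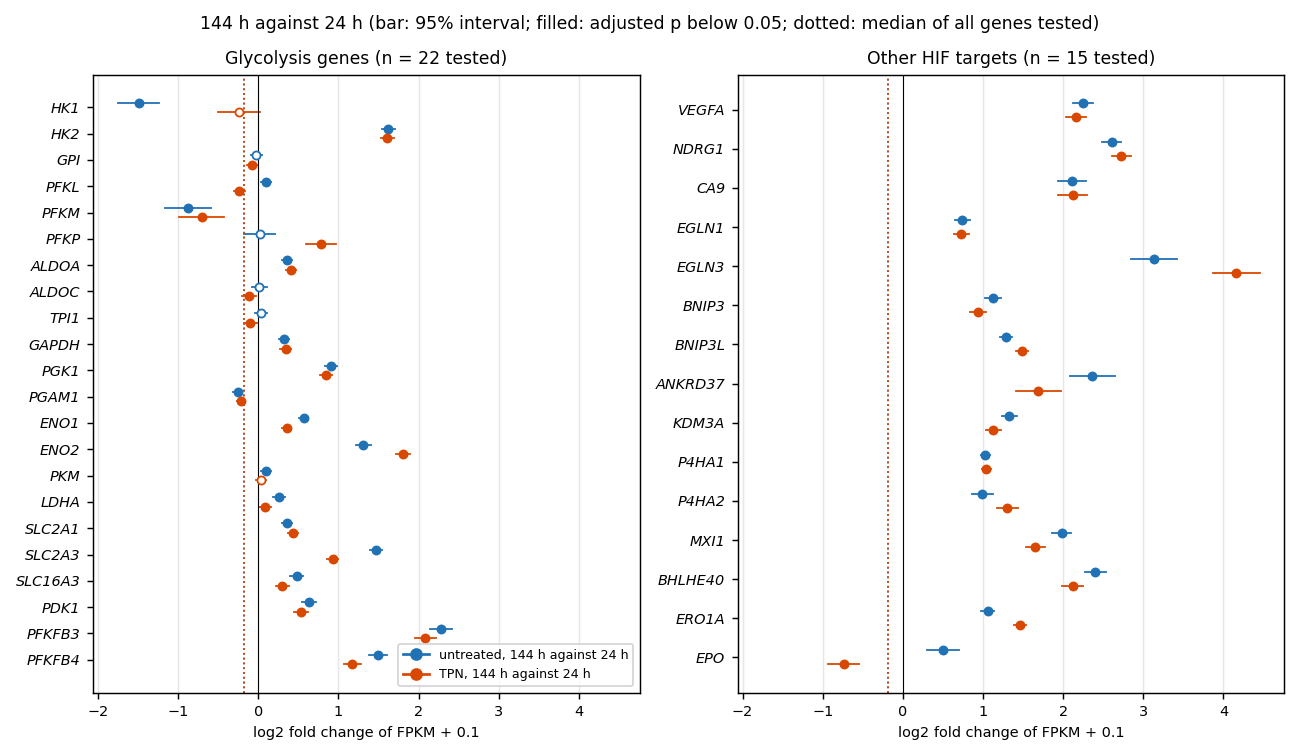
Log2 fold change of FPKM + 0.1 from 24 h to 144 h in untreated (blue) and TPN-exposed (red) spheroids for the 37 members tested; bars are 95% intervals, filled points passed an adjusted p of 0.05, and dotted lines mark the median of all genes tested. The other HIF targets lie to the right of 0 apart from EPO with TPN, and the glycolysis members lie on both sides.

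Set side by side, the glycolysis members had lower median log2 fold changes than the other HIF targets in every comparison. The difference of the medians was -0.048 at 24 h of TPN, within the spread between libraries (SD 0.0513), and -0.10 at 144 h of TPN (SD 0.0439), where the 3 TPN libraries gave -0.136, -0.134 and -0.029. For culture time it was -0.99 in untreated and -1.14 in TPN-exposed spheroids. The medians describe these genes and were not tested, and the comparisons at 144 h of TPN and over time in untreated spheroids share the untreated libraries of 144 h.

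A wider list held 38 further HIF targets. Of the 36 tested, 32 rose and 2 fell over time in untreated spheroids (median 1.17), against 20.1% and 52.4% of all genes. With TPN 11 rose and none fell at 24 h, against 5.04% and 5.46% of all genes. At 144 h 19 rose and 7 fell (median 0.12), against 24.2% and 28.3%. Beyond the size limit were ANGPTL4, a lipoprotein lipase inhibitor (log2 fold change 1.10), HILPDA, a lipid droplet protein (0.64), and PPFIA4 (0.60), all higher with TPN at 144 h. PPFIA4 was below that limit without replicate 1 of untreated 144 h (0.43) or replicate 2 of TPN 144 h (0.534), with a pseudocount of 1 (0.502) and after removal of the GC and length trend (0.545). Transcripts of the HIF subunits changed by less than the size limit with TPN at 144 h: HIF1A rose by 0.26, EPAS1, which encodes the second alpha subunit, rose by 0.41, ARNT fell by 0.13 (not past the threshold without replicate 2 or 3 of untreated 144 h or replicate 3 of TPN 144 h, adjusted p 0.0567 to 0.0615), and VHL had a log2 fold change of 0.08 (adjusted p = 0.067). Of the 13 tested genes of the HIF machinery 3 rose and 2 fell at 144 h, where 24.2% of all genes rose and 28.3% fell. At 24 h none rose and 2 fell, against 5.04% and 5.46% of all genes. These were ARNT, by 0.21 (adjusted p = 0.00672, called in all 23 alternatives), and EPAS1, by 0.12. The EPAS1 call was lost without replicate 2 or 3 of untreated 24 h or any library of TPN 24 h (adjusted p 0.0642 to 0.101). HIF1A fell by 0.37 over time in untreated spheroids, while EPAS1 rose by 0.45. These are transcript levels, and HIF alpha subunits are controlled mainly at the protein.

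Of 24 tested liver and other glycolysis genes 6 rose and 11 fell with TPN at 144 h, against 24.2% and 28.3% of all genes, so that the share of rises was near the background. There were rises of the monocarboxylate transporter family member SLC16A4 (1.10), of GCKR (0.91) and of HKDC1 (0.72), and falls of SLC2A14 and of the muscle enolase ENO3 (-0.66). At 24 h 3 of the 24 rose and 3 fell, against 5.04% and 5.46% of all genes. GCKR and HKDC1 were among those rises, at 0.57 to 0.67 and 0.50 to 0.54 with each library left out in turn. At 144 h the liver glucose transporter SLC2A2 fell by 0.38 and the liver pyruvate kinase PKLR fell by 0.41. Of 12 genes that carry or control pyruvate into the mitochondrion 5 fell and 1 rose, the mitochondrial pyruvate carrier subunit MPC1 by the most (-0.74). Of the 6 glucose-sensing genes 3 rose and 2 fell at 144 h. The arrestin-domain genes TXNIP, ARRDC4 and ARRDC3 rose at both times, TXNIP by 0.45 at 24 h and 0.95 at 144 h and ARRDC4 by 0.71 and 1.63. MLXIPL, a glucose-responsive transcription factor, fell by 0.39 at 144 h (adjusted p = 7.57e-06), as did its partner MLX, by 0.13 (adjusted p = 0.0303), a call lost without replicate 1 or 3 of untreated 144 h or replicate 1 of TPN 144 h (0.109 to 0.144).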

How the data were processed

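RNA was sequenced from 12 libraries, 3 in each of 4 groups taken from the sample labels. The authors deposited gene values in FPKM, rounded to 2 decimals, without pooling replicates. Reads were filtered with SOAPnuke 1.5.2 and gene values made with RSEM 1.2.8, as the study's methods say, and the submitters' processing notes name HISAT2 2.0.4, Bowtie2 2.2.5 and GRCh38.p13. The study tested counts; FPKM are not counts, so log2(FPKM + 0.1) was tested here with limma 3.58.1 in R 4.3.3, for the 11713 genes with a mean of at least 0.5 FPKM. The fit had 4 group means and eBayes with an intensity trend, and p-values were adjusted by Benjamini-Hochberg over all genes tested. Fold changes on this scale understate those of low genes. A gene was called at an adjusted p below 0.05, and with the study's size limit also at a log2 fold change beyond 0.58 in either direction. The code was tested on simulated data. Depth was estimated from the steps of 25 short genes, of whose nonzero values 93.3% lay near whole steps among all candidates.

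The members, gene lists and rules were chosen with earlier results of these data known. Values per library are given for members past both thresholds with TPN or in the interaction, for up to 5 members of each set with the largest change at 144 h, and for those that changed most over time. Of the other lists, HIF1A, EPAS1, ARNT, VHL, SLC2A2, PKLR and TXNIP are named always, and others where past both thresholds; some genes of these lists are not reported here. GPI, MXI1 and NDRG1 at 24 h, and MLXIPL and MLX, were added after their values were seen. Alternatives were other pseudocounts, filters, scalings and fits, and leaving out each library.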

Additional observations from a re-analysis of the deposited data

Results flagged for a closer look

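For 19 of the 37 members tested the response to TPN was not the same at both times, by the interaction term of limma with Benjamini-Hochberg adjustment, with 14.1% of all genes higher and 16.3% lower. Each value is the later log2 fold change less the earlier one. Among the glycolysis members it was higher for HK1 (1.25), PFKP (0.77) and ENO2 (0.49) and lower for SLC2A3 (-0.54), PFKL (-0.33), PFKFB4 (-0.31), ENO1 (-0.21), SLC16A3 (-0.18) and LDHA (-0.17). Among the other HIF targets it was higher for EGLN3 (1.03), ERO1A (0.40), P4HA2 (0.31) and BNIP3L (0.20) and lower for EPO (-1.24), ANKRD37 (-0.67), MXI1 (-0.33), BHLHE40 (-0.28), KDM3A (-0.20) and BNIP3 (-0.19).

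Of these, 4 did not hold without single libraries. BHLHE40 did not pass without replicate 1 or 2 of TPN 24 h (adjusted p 0.053 to 0.0566). KDM3A did not pass without replicate 3 of untreated 24 h, replicate 2 of TPN 24 h or replicate 1 or 3 of TPN 144 h (0.0526 to 0.0566). SLC16A3 did not pass without replicate 1 or 3 of untreated 24 h, replicate 2 of TPN 24 h, replicate 3 of untreated 144 h or replicate 2 of TPN 144 h (0.0528 to 0.0601). BNIP3 did not pass without any of 9 libraries, namely replicate 3 of untreated 24 h, replicates 1 and 2 of TPN 24 h and all of untreated and TPN 144 h (0.0558 to 0.0987).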

How the results depend on the processing

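The count of members called at 24 h was 16, and 10 without replicate 2 of TPN 24 h. With the size limit added, the counts were 0 at 24 h, 6 at 144 h, 5 for the interaction and 23 for TPN over time. Of all genes 0.64% passed both limits upward and 0.273% downward at 24 h, and 5.75% and 3.73% at 144 h. For the interaction 4.2% and 1.66% did, and for TPN over time 9.51% and 17.2%. Leaving out each library in turn gave 10 to 19 at 24 h, 20 to 24 at 144 h, 15 to 20 for the interaction, 33 over time in untreated and 31 to 35 in TPN-exposed spheroids. Over all genes tested (11698 to 11727), 416 to 620 then rose and 441 to 659 fell at 24 h. At 144 h 2559 to 2820 rose and 2986 to 3274 fell, and 1459 to 1548 interactions were higher and 1652 to 1790 lower. Over time 2248 to 2360 rose and 5825 to 6155 fell in untreated spheroids, and 2663 to 2837 and 5820 to 6111 in TPN-exposed ones. The difference of medians, glycolysis minus other HIF targets, was then -0.095 to -0.040 at 24 h and -0.14 to -0.086 at 144 h. Called in every alternative were 10 of 16 members at 24 h, 19 of 24 at 144 h, 15 of 19 interactions, 30 of 33 over time in untreated and 26 of 35 in TPN-exposed spheroids. Over all alternatives 3983 values for members kept direction and side of the threshold, 116 lost and 50 gained the call, and 59 changed sign. The cause of these changes was not tested. GC content and length were known for 98.9% of genes tested.

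The labels number the replicates alike in each group. Deviations from the group means correlated at -0.083 to 0.151 between samples with the same number and at -0.241 to 0.114 between samples with different numbers. Whether the numbers pair the samples was not tested. The main fit had no replicate block because the study's methods name none. With the replicate block the counts were 19 at 24 h (17 rose, 2 fell), 24 at 144 h, 19 interactions, 33 over time in untreated and 34 in TPN-exposed spheroids. Over all genes the block gave 581 rises and 645 falls at 24 h, 2824 and 3306 at 144 h, and 1633 higher and 1917 lower interactions. Over time it gave 2359 rises and 6136 falls in untreated and 2825 and 6057 in TPN-exposed spheroids.

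Of called values, only those of ALDOC, GPI, LDHA and TPI1 over time with TPN changed sign. Under median ratio scaling these became 0.0603 for ALDOC, 0.103 for GPI and 0.0789 for TPI1. Quantile normalization gave 0.0704 for ALDOC, 0.0556 for GPI and -0.166 for LDHA, and removal of the GC and length trend 0.0432 for ALDOC, 0.0247 for GPI and 0.0713 for TPI1. Over time in untreated spheroids GPI became 0.152, 0.088 and 0.111 under median ratio, quantile and GC and length, and with equal totals ALDOC became -0.00159 and PFKP -3.68e-05. At 144 h of TPN, equal totals, quantile normalization and GC and length gave -0.00228, -0.0201 and -0.00445 for BNIP3 and -0.0112, -0.0327 and -0.0374 for HK2. Quantile normalization and GC and length gave -0.0325 and -0.00456 for PKM, and quantile normalization -0.0904 for PFKM and, at 24 h, -0.00354 for PGAM1. Interactions became -0.0301 for ALDOA and -0.0149 for GAPDH under quantile normalization, and -0.00554 for CA9 and 0.00819 for EGLN1 under GC and length.

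Leaving out single libraries changed the sign of uncalled values near 0. At 24 h the ranges were -0.0801 to 0.268 for ANKRD37, -0.00729 to 0.0256 for HK2, -0.00694 to 0.0603 for LDHA, -0.0247 to 0.0728 for P4HA2, -0.0526 to 0.0513 for COL1A1, -0.028 to 0.0865 for COL1A2, -0.00363 to 0.341 for HILPDA and -0.0193 to 0.0471 for VHL. At 144 h they were -0.0307 to 0.0417 for HK2 and -0.065 to 0.111 for PFKM. Interactions ran from -0.071 to 0.124 for CA9, -0.0555 to 0.022 for EGLN1, -0.0418 to 0.0305 for HK2 and -0.00166 to 0.0306 for P4HA1. Over time in untreated spheroids they ran from -0.0217 to 0.0509 for ALDOC, -0.0723 to 0.143 for PFKP and -0.000355 to 0.0563 for TPI1.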
